A study of Fragaria x ananassa with 28 samples.

Results

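The comparison described here sets fruit injected with nordihydroguaiaretic acid (NDGA) against fruit injected with water, 5 days after the injection. Its members were chosen by label alone: the 2 mRNA libraries of NDGA-injected fruit at day 5 and the 2 of water-injected fruit at day 5, so 4 of the 28 libraries of the series and 4 of its 14 mRNA libraries. The fruit came from 'Toyonoka', an octaploid cultivar of the garden strawberry (Fragaria × ananassa), and the sampled tissue was labelled receptacle, the fleshy part under the achenes. Every fruit, the controls included, received 100 µL of liquid into the core of the receptacle at 2 weeks after flowering: 100 µM NDGA, 1 µM abscisic acid (ABA) or distilled water. NDGA-injected fruit were sampled at days 5 and 8, ABA-injected fruit at days 5 and 8, and water-injected fruit at days 0, 5 and 8. RNA of 10 fruits was pooled for each group before library construction. The protocol text counts 7 mRNA libraries where 14 are given, and is silent on whether a group's 2 libraries were made from different pools. The p-values therefore measure the spread between libraries, which may be technical.

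Strawberry is a non-climacteric fruit, and ABA is known as the hormone that promotes its ripening, when the receptacle turns red, softens, loses chlorophyll and gains aroma. ABA is cut from carotenoid precursors by 9-cis-epoxycarotenoid dioxygenases, and its signal passes through receptors, clade A protein phosphatases 2C and SnRK2 kinases to transcription factors. The labels name NDGA as a blocker of ABA synthesis. It acts broadly on lipoxygenases too, the enzymes that open the pathway to jasmonates, so it is not specific to ABA.

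Levels are given in RPKM, the reads on a transcript divided by its length and by all reads counted in the library. Transcripts were assembled de novo and are named by the Swiss-Prot description in the deposited table. Several assembled forms can belong to 1 component of the assembly; such forms may stem from alleles, from splicing or from the subgenomes of the octaploid, and share reads, so the level of a single form is uncertain. A change is the difference of the mean log2(RPKM + 1) of NDGA minus water fruit, given with its standard error (SE); the scale understates the change of low transcripts. "Called" means an adjusted p below 0.05 in limma's moderated test over all 14 libraries with Benjamini-Hochberg adjustment over 99136 tested transcripts, and every p below is that adjusted p. The 4 libraries held 8782473 and 8765441 counted reads in NDGA fruit, and 8644476 and 7356752 in water fruit. Each library was closest to the other library of its group, with correlations of 0.912 to 0.921 over the 7 groups.

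Of the 99136 tested transcripts, 2015 were called (2.03%), 1220 of them higher in NDGA fruit (1.23%) and 795 lower (0.802%). The gene groups below were drawn only from transcripts with a Swiss-Prot description. Of the 34209 such transcripts tested, 1.96% were higher and 1.39% lower, which is the nearer background for those groups. The median change over all tested transcripts was 0.01. The called changes had a median size of 1.73 on the log2 scale among higher transcripts and 1.42 among lower ones, and 126 higher and 73 lower transcripts changed by 3 or more. The libraries of the 2 groups did not overlap for any called transcript, but that held for 39.6% of all tested transcripts and says little by itself. The calls rest on a spread shared over all 14 libraries: a fit of the 4 compared libraries alone called 22 (0.0222%), 10 higher (0.0101%) and 12 lower (0.0121%). A fit of the 6 day 5 libraries called 400 (0.403%), 206 higher (0.208%) and 194 lower (0.196%), and leaving out 1 of the 4 libraries left 530 to 578 higher and 403 to 418 lower. Calls of transcripts at low levels are the least certain: 814 of the 1220 higher and 636 of the 795 lower ones had a mean of at least 5 RPKM in the higher group, and some of the rest, which the counts by gene group include, may be false.

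**Figure D1:**
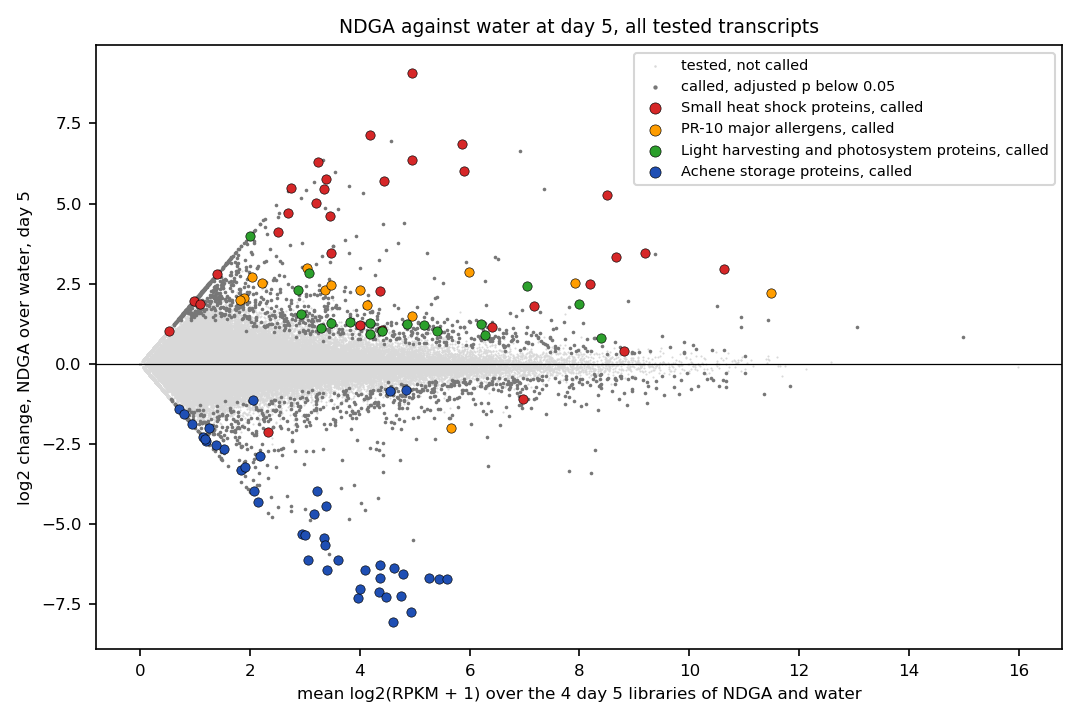
Change of each tested transcript (y axis, NDGA over water at day 5, log2) against its mean log2(RPKM + 1) over the 4 libraries (x axis). Each point is 1 transcript; called members of 4 lists are coloured, with small heat shock proteins reaching 9.07 above 0 and achene storage proteins 8.04 below it.

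A pattern in the control libraries touches the count of higher transcripts and precedes the results. A set of 198 tested forms had a mean below 0.3 RPKM in water fruit at day 5 and in ABA fruit at both days, and above 1 RPKM in water fruit at days 0 and 8 and in NDGA fruit at both days. Their summed level was 1052 and 1088 RPKM in NDGA fruit at day 5, against 14.1 and 7.57 RPKM in water fruit at day 5. It was 2314 and 2286 RPKM in water fruit at day 0, 9.73 and 10.3 RPKM in ABA fruit at day 5, 522 and 557 RPKM in NDGA fruit at day 8, 4.71 and 7.79 RPKM in ABA fruit at day 8, and 2227 and 2176 RPKM in water fruit at day 8. The bounds that chose the forms fix which groups are high and which are low. The opposite pattern, with the bounds exchanged, held 25 forms, 0 of which were called lower. Of the 198 forms, 118 were called higher at day 5, in 111 components; 89 of these had other tested forms, and as sums over all forms 29 of the 89 were called higher and 2 lower, with a median change of 0.47, against 2.52 for the forms themselves. Without the 198 forms the higher calls numbered 1102, and counts by gene group are given without them where they lose a member. Counts shared between contrasts include them. What sets these forms apart was not tested.

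**Figure D2:**
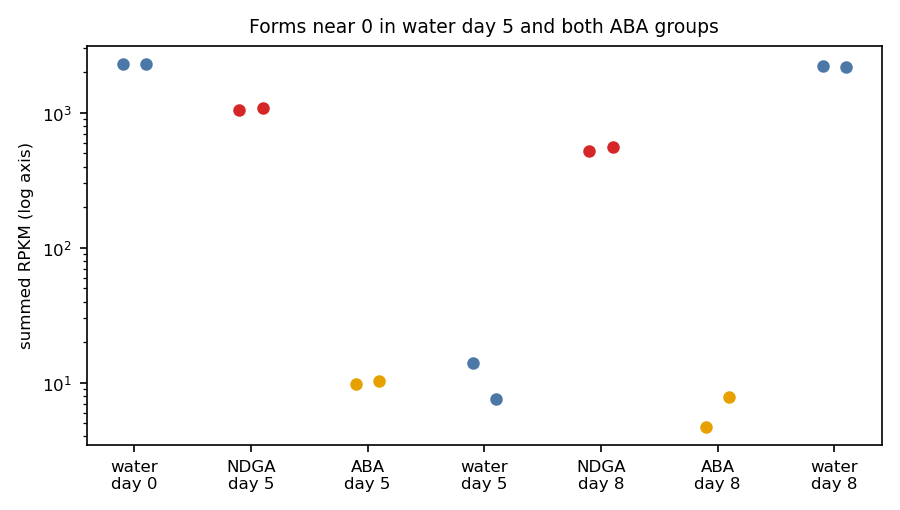
Summed RPKM (y axis, log scale) of the 198 forms in each library of the 7 mRNA groups (x axis); each point is 1 library. NDGA fruit at day 5 sit at 1052 and 1088 RPKM, and water fruit at day 5 at 14.1 and 7.57 RPKM.

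Few transcripts of ABA synthesis and signalling were called at day 5. Among 44 tested transcripts of ABA synthesis and breakdown 1 was called higher and 1 lower. For 113 transcripts of ABA receptors and signalling the counts were 2 and 2. Such counts are too small to read against the 1.96% higher and 1.39% lower of described transcripts. The fit of the 6 day 5 libraries called 0 members of either list, and 0 of the carotenoid synthesis list below. The calls of single transcripts in this paragraph rest on the fit of 14 libraries. The changes of all members ran from -1.05 to 2.08 in the first list and from -1.16 to 2.00 in the second. Abscisate beta-glucosyltransferase (comp105597_c0_seq2), which ties ABA to glucose, had 25.5 and 30.2 RPKM in NDGA fruit, against 43.9 and 46 RPKM in water fruit. Both NDGA libraries lay below both water libraries, and the change was -0.68 ± 0.15, adjusted p = 0.0302. A form of NCED5 (comp6007_c1_seq1), one of the dioxygenases that cut carotenoids on the way to ABA, was called higher at a low level, with 2.63 and 3.95 RPKM in NDGA fruit, against 0 and 0 RPKM in water fruit. Both forms of protein phosphatase 2C 37 that were called were lower; in Arabidopsis this phosphatase restrains ABA signalling and is itself induced by ABA. The form comp115440_c0_seq6 had 96 and 96.9 RPKM in NDGA fruit, against 131 and 146 RPKM in water fruit (change -0.52 ± 0.10, adjusted p = 0.0121). The kinase SAPK2 (comp103900_c0_seq1, named for a rice SnRK2) rose, with 8.8 and 8.16 RPKM in NDGA fruit, against 4.3 and 2.92 RPKM in water fruit (change 1.06 ± 0.24, adjusted p = 0.0443), as did a low form of ABI5-like protein 2 (comp108851_c0_seq16), a bZIP factor, by 2.00 on the log2 scale. Among 34 transcripts of carotenoid synthesis 2 were higher and 2 lower, and both lower ones were forms of beta-carotene hydroxylase 2, whose product feeds the xanthophylls; comp107413_c0_seq3 had 53.7 and 47.5 RPKM in NDGA fruit, against 80.1 and 72.9 RPKM in water fruit (change -0.59 ± 0.13, adjusted p = 0.0313).

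Anthocyanin and flavonoid genes went both ways, and forms of leucoanthocyanidin dioxygenase were called in each direction. Of 159 tested transcripts 8 were higher (5.03%) and 9 lower (5.66%), against 1.96% and 1.39% of described transcripts. The median change was 0, with 79 changes above 0 and 77 below. The fit of the 6 day 5 libraries called 2 higher and 2 lower. The 9 lower ones were 6 forms of UDP-glucose flavonoid 3-O-glucosyltransferase 6, 2 of leucoanthocyanidin dioxygenase, which makes anthocyanidins, and 1 of dihydroflavonol 4-reductase. The 8 higher ones were 3 other forms of leucoanthocyanidin dioxygenase, 2 of anthocyanidin reductase, which leads to proanthocyanidins, 2 of chalcone isomerase and 1 of chalcone synthase. The regulator MYB113 (comp93382_c0_seq1), which in Arabidopsis switches on anthocyanin genes, had 0.294 and 0.787 RPKM in NDGA fruit, against 9.57 and 7.85 RPKM in water fruit. Both NDGA libraries were below 1 RPKM, beside 0 and 0.416 RPKM in water fruit at day 0, while ABA fruit at day 5 had 55.7 and 52.1 RPKM; the change was -2.67 ± 0.21, adjusted p = 7.54e-06. Leucoanthocyanidin dioxygenase comp103558_c0_seq2, chosen after its values were seen, had 5.33 and 6 RPKM in NDGA fruit, against 71.4 and 65.2 RPKM in water fruit, and ABA fruit at day 5 had 364 and 424 RPKM. All NDGA values were again below all water values (change -3.38 ± 0.26, adjusted p = 4.96e-06). The glucosyltransferase form comp111895_c0_seq3 had 8.27 and 6.93 RPKM in NDGA fruit, against 42 and 49.2 RPKM in water fruit (change -2.44 ± 0.18, adjusted p = 3.97e-06). In the other direction, chalcone isomerase 1 (comp105294_c0_seq1), an early step shared by all flavonoids, had 29.9 and 27.5 RPKM in NDGA fruit, against 15.4 and 13.7 RPKM in water fruit. NDGA fruit were higher than water fruit (change 0.93 ± 0.11, adjusted p = 3.71e-04), but both lay below the 80.6 and 76.1 RPKM of day 0. Anthocyanidin reductase comp103703_c1_seq1 had 27.1 and 26 RPKM in NDGA fruit, against 11.7 and 11.3 RPKM in water fruit (change 1.14 ± 0.15, adjusted p = 9.07e-04), and ABA fruit at day 5 had 7.26 and 7.31 RPKM. Upstream, both called transcripts among 24 phenylpropanoid entry enzymes were forms of trans-cinnamate 4-monooxygenase, the cytochrome P450 that makes p-coumarate; comp106234_c0_seq2 had 18.2 and 16.3 RPKM in NDGA fruit, against 4.76 and 4.78 RPKM in water fruit (change 1.66 ± 0.18, adjusted p = 1.20e-04).

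Aroma genes also divided, 5 higher and 6 lower of 42, but 1 higher and 0 lower in the fit of the 6 day 5 libraries. A form of the quinone oxidoreductase family (comp99435_c1_seq1), to which the furaneol-forming enzyme of strawberry belongs, had 16.7 and 19.3 RPKM in NDGA fruit, against 43.6 and 37.1 RPKM in water fruit. NDGA fruit were close to the 13.7 and 15.1 RPKM of day 0, whereas ABA fruit at day 5 had 212 and 204 RPKM (change -1.12 ± 0.12, adjusted p = 1.17e-04). Of the 6 lower transcripts 3 were pyruvate decarboxylases, the enzyme that makes the acetaldehyde used for ethanol and esters, and their changes ran from -2.05 to -1.36. Benzyl alcohol O-benzoyltransferase (comp107216_c0_seq4), an ester-forming acyltransferase, was higher, with 38 and 36.5 RPKM in NDGA fruit, against 18.2 and 19.2 RPKM in water fruit (change 0.96 ± 0.15, adjusted p = 0.00267).

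Some wall enzymes known from softening fruit were called lower in NDGA fruit, but the median changes of their lists were above 0. The median was 0.144 for hydrolases of hemicellulose and side chains, 0.0591 for pectin enzymes and 0.347 for expansins. In each of these lists the called shares lay above the 1.96% higher and 1.39% lower of described transcripts. Of 182 tested hydrolases of hemicellulose and side chains 12 were lower and 4 higher; of 191 pectin enzymes 7 were lower and 6 higher; of 53 expansins 3 were lower and 6 higher. In the fit of the 6 day 5 libraries 8 hydrolases, 3 pectin enzymes and 1 expansin were lower. That fit called 2 hydrolases, 1 pectin enzyme and 0 expansins higher. Endoglucanase 8 (comp104453_c1_seq2), which cuts beta-1,4-glucans, had 88.7 and 92.1 RPKM in NDGA fruit, against 946 and 982 RPKM in water fruit. All NDGA values lay far below all water values, while ABA fruit at day 5 had 2767 and 3051 RPKM, and water fruit at day 0 had 25.4 and 24.1 RPKM (change -3.40 ± 0.09, adjusted p = 2.16e-10). A second assembled transcript of the same description, comp104453_c0_seq9, had 130.2 and 115 RPKM in NDGA fruit, against 815 and 752 RPKM in water fruit (change -2.67). Beta-D-xylosidase 1 (comp112456_c0_seq3), which trims xylan, had 52 and 47 RPKM in NDGA fruit, against 136 and 139 RPKM in water fruit (change -1.46). Both transcripts were lower in both NDGA libraries. All 3 lower expansins were forms of expansin-A8, a protein that loosens walls without cutting them; comp105538_c0_seq2 had 27 and 25.9 RPKM in NDGA fruit, against 93.5 and 81 RPKM in water fruit, and water fruit at day 0 had 0.969 and 0.962 RPKM (change -1.68 ± 0.12, adjusted p = 2.01e-06). The 6 higher expansins were at lower levels and included 3 other forms of expansin-A8. Of them, expansin-A23 (comp51410_c0_seq1) had 5.01 and 6.98 RPKM in NDGA fruit, against 0.442 and 0 RPKM in water fruit (change 2.53 ± 0.41, adjusted p = 0.00413). Of the pectin enzymes, pectinesterase PPE8B (comp99587_c0_seq2), which removes methyl groups from pectin, was lower, with 26.6 and 27.1 RPKM in NDGA fruit, against 92.1 and 86.4 RPKM in water fruit (change -1.70 ± 0.15, adjusted p = 1.94e-05). Pectate lyase, which cuts the demethylated chain, went both ways by form. Pectate lyase 5 (comp100002_c0_seq1) was higher, with 56.1 and 61.2 RPKM in NDGA fruit, against 20.0 and 21.8 RPKM in water fruit (change 1.45 ± 0.14, adjusted p = 5.02e-05). Pectate lyase 20 (comp111958_c0_seq2) was lower, with 33.1 and 41.2 RPKM in NDGA fruit, against 75.8 and 80.0 RPKM in water fruit (change -1.06). Endoglucanase 6 shows the uncertainty of single forms: comp120169_c1_seq20 rose, with 21.8 and 22.4 RPKM in NDGA fruit, against 0 and 0 RPKM in water fruit (change 4.53 ± 0.30, adjusted p = 1.13e-06), while 3 more abundant forms of the component fell and the sum of its forms changed by -0.75. Among 84 cellulose synthases 3 were higher and 0 lower; the named form of catalytic subunit 1 (comp105077_c0_seq2) had 5.7 and 11.4 RPKM in NDGA fruit, against 0 and 0 RPKM in water fruit, and without the 198 forms 1 of 82 was higher.

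**Figure D3:**
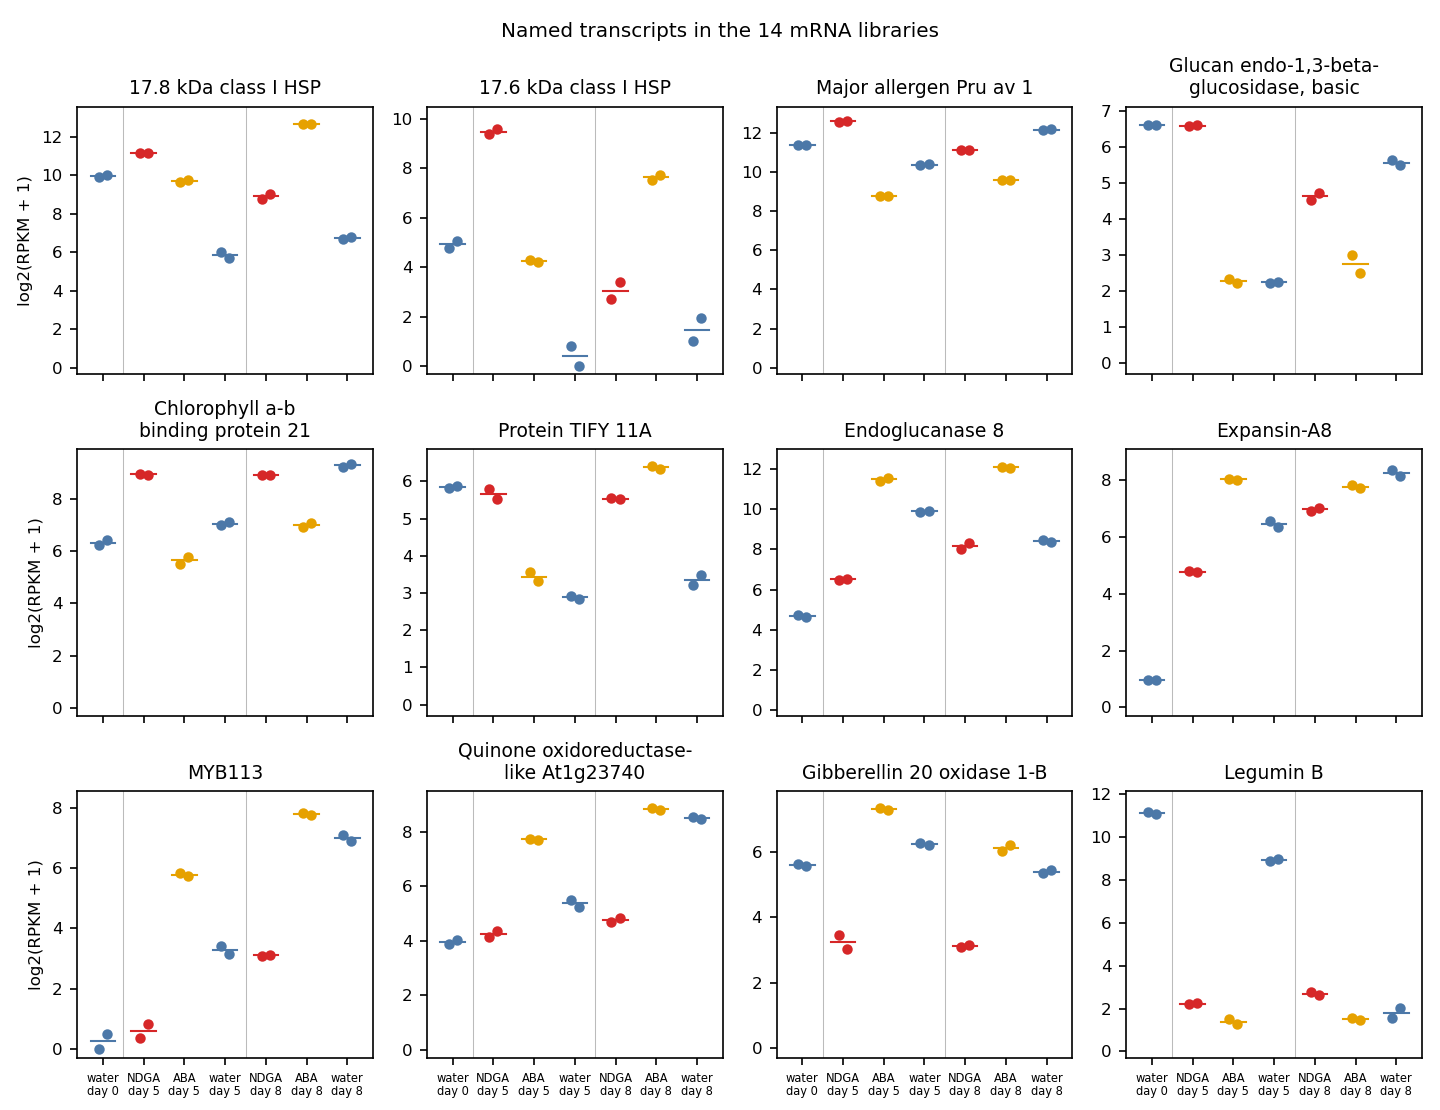
Levels of 12 named transcripts (y axis, log2(RPKM + 1)) in the 7 mRNA groups (x axis); points are the 2 libraries and bars their mean. In NDGA fruit at day 5 endoglucanase 8 sits at 88.7 and 92.1 RPKM, below water at 946 and 982 RPKM, and the 17.8 kDa heat shock protein at 2245 and 2247 RPKM, above water at 64.5 and 51.2 RPKM.

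The lipoxygenase and jasmonate list, which holds the enzymes NDGA is otherwise known to inhibit, had 4 higher and 2 lower of 71 transcripts, with a median change of 0.37, and 3 of 70 were higher without the 198 forms. The form of linoleate 13S-lipoxygenase 2-1 that rose (comp112755_c3_seq12) is 1 of the 198 forms, with 11.9 and 14.3 RPKM in NDGA fruit, against 0.118 and 0 RPKM in water fruit. Allene oxide cyclase 3 (comp102335_c0_seq1), a later step to jasmonate, had 199 and 204 RPKM in NDGA fruit, against 115 and 111 RPKM in water fruit (change 0.83 ± 0.09, adjusted p = 1.14e-04). A form of 12-oxophytodienoate reductase 2 (comp99452_c0_seq3), a reductase of oxylipins, was lower, with 0.316 and 1.9 RPKM in NDGA fruit, against 11.9 and 11.7 RPKM in water fruit (change -2.71 ± 0.34, adjusted p = 5.18e-04). Of 16 TIFY (JAZ) repressors of jasmonate responses and COI1 transcripts 2 were higher and 0 lower. TIFY 11A (comp104462_c1_seq3) had 54 and 45.3 RPKM in NDGA fruit, against 6.56 and 6.2 RPKM in water fruit. NDGA fruit lay near the 55.5 and 57.5 RPKM of day 0, and ABA fruit at day 5 had 10.8 and 8.93 RPKM (change 2.77 ± 0.15, adjusted p = 2.15e-07).

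Gibberellin and auxin genes had calls in both directions. Of 88 gibberellin transcripts 10 were higher and 4 lower, and the 4 lower ones were all enzymes of the last steps to active gibberellins. Gibberellin 20 oxidase 1-B (comp103306_c0_seq1) had 9.98 and 7.15 RPKM in NDGA fruit, against 75.6 and 72.8 RPKM in water fruit. NDGA fruit were lower than water fruit of days 0, 5 and 8, and ABA fruit at day 5 had 161 and 156 RPKM (change -2.99 ± 0.15, adjusted p = 5.96e-08). Gibberellin 20 oxidase 2 (comp102933_c0_seq1) had 14.2 and 13.9 RPKM in NDGA fruit, against 45.9 and 57.1 RPKM in water fruit (change -1.79). Of the 10 higher transcripts 8 were gibberellin-regulated or snakin peptides, small cysteine-rich proteins known as gibberellin targets, and 2 were forms of gibberellin 3-beta-dioxygenase 4. Gibberellin-regulated protein 1 (comp102519_c2_seq5) had 92.7 and 94.5 RPKM in NDGA fruit, against 0.955 and 1.12 RPKM in water fruit, with 0 and 0 RPKM in ABA fruit at day 5 and 243 and 178 RPKM at day 0 (change 5.54 ± 0.23, adjusted p = 1.42e-08), and so lay just outside the bounds of the 198 forms. Snakin-1 (comp116484_c0_seq14) had 64.1 and 61.9 RPKM in NDGA fruit, against 0.599 and 0 RPKM in water fruit, and is 1 of the 198 forms (change 5.66 ± 0.24, adjusted p = 1.58e-08). Without them 6 of 84 were higher, among which gibberellin-regulated protein 6 (comp100015_c1_seq4) had 280.0 and 256 RPKM in NDGA fruit, against 136 and 115 RPKM in water fruit (change 1.09). Of 262 auxin transcripts 14 were higher and 5 lower, but 5 to 8 were higher without any 1 of the 4 libraries and 1 in the fit of the 6 day 5 libraries. The higher ones held 7 Aux/IAA repressors, which restrain auxin responses and are induced by auxin, and 3 forms of the conjugating enzyme GH3.1. IAA27 (comp119555_c1_seq1) had 72.9 and 73.1 RPKM in NDGA fruit, against 36 and 34.3 RPKM in water fruit. NDGA fruit lay between water fruit of day 5 and water fruit of day 0, which had 114 and 114 RPKM, and ABA fruit at day 5 had 16.2 and 15.6 RPKM (change 1.03 ± 0.13, adjusted p = 4.24e-04). Among the lower ones AIR12 (comp101076_c0_seq2, auxin-induced in root cultures) had 254 and 257 RPKM in NDGA fruit, against 386 and 445 RPKM in water fruit (change -0.70 ± 0.09, adjusted p = 0.00115).

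Small heat shock proteins, which hold unfolding proteins in a refoldable state, held the largest rise of any tested transcript. Of 57 tested transcripts 30 were higher and 2 lower, against 1.96% and 1.39% of described transcripts and 1.23% and 0.802% of all tested ones. The median change of the small heat shock proteins was 1.16. Their summed level was 15534 and 16394 RPKM in NDGA fruit, against 2760.2 and 2927 RPKM in water fruit. The 17.8 kDa class I protein (comp107291_c0_seq1) had 2245 and 2247 RPKM in NDGA fruit, against 64.5 and 51.2 RPKM in water fruit, a change of 5.26 ± 0.10, adjusted p = 8.03e-12. The 17.6 kDa class I protein (comp99896_c0_seq2) went higher still on this scale, with 661 and 773 RPKM in NDGA fruit, against 0.769 and 0 RPKM in water fruit. It was almost at 0 in both water libraries, and its change was 9.07 ± 0.32, adjusted p = 2.13e-09. The 17.4 kDa class III protein (comp104790_c0_seq4) had 604 and 657 RPKM in NDGA fruit, against 5.64 and 3.38 RPKM in water fruit (change 6.87 ± 0.21). The chloroplast small heat shock protein comp101496_c0_seq2 had 461 and 504 RPKM in NDGA fruit, against 5.18 and 7.88 RPKM in water fruit (change 6.03 ± 0.23), and the mitochondrial 26.5 kDa form comp104295_c1_seq1 had 275 and 281 RPKM in NDGA fruit, against 1.71 and 3.25 RPKM in water fruit (change 6.36 ± 0.20). The most abundant riser, chosen after its values were seen, was the 16.9 kDa class I protein 3 (comp101863_c1_seq2), with 4230.4 and 4673 RPKM in NDGA fruit, against 525 and 615 RPKM in water fruit (change 2.97 ± 0.12). In each of these the NDGA libraries stood far above the water libraries. Further large rises were those of the 26.5 kDa form comp104684_c1_seq5 (change 5.77), the 17.5 kDa class I form comp107291_c2_seq1 (5.69) and another 17.6 kDa form, comp99896_c1_seq1 (6.30). Both lower members were forms of the mitochondrial 23.6 kDa protein, of which comp102104_c2_seq15 had 0.971 and 1.95 RPKM in NDGA fruit, against 11.2 and 8.12 RPKM in water fruit (change -2.13 ± 0.33, adjusted p = 0.00318), while 2 other transcripts of that description were higher. The higher count was 22 in the fit of the 6 day 5 libraries, 27 or 28 on leaving out 1 of the 4 libraries, and 3 in the fit of the 4 libraries alone.

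The larger chaperones had as many lower as higher members. Of 166 HSP70, HSP90 and HSP101 transcripts 7 were higher and 7 lower, and of 47 heat stress transcription factors 0 were higher and 1 lower. A heat shock 70 kDa protein (comp109644_c1_seq1) rose, with 185 and 196 RPKM in NDGA fruit, against 30.4 and 31.1 RPKM in water fruit (change 2.59 ± 0.11, adjusted p = 1.58e-08). The constitutive heat shock cognate 70 kDa protein 2 (comp117136_c0_seq4) fell, with 1223 and 1294 RPKM in NDGA fruit, against 2095 and 2098 RPKM in water fruit (change -0.74 ± 0.05, adjusted p = 7.22e-07), and 5 of the other 6 lower transcripts were HSP90 forms. The one factor called, heat stress transcription factor B-2b (comp103520_c0_seq3), had 41.7 and 34.7 RPKM in NDGA fruit, against 76.6 and 81.7 RPKM in water fruit (change -1.04 ± 0.17, adjusted p = 0.00409). ABA fruit at day 5, compared with the same 2 water libraries, had calls for 2.16% of all tested transcripts (1.21% higher, 0.956% lower), and 33 higher and 0 lower small heat shock proteins and 55 higher and 5 lower larger chaperones. The summed small heat shock level of ABA fruit at day 5 averaged 17291 RPKM. The summed level of the larger chaperones averaged 13938 RPKM in NDGA fruit and 30314 RPKM in ABA fruit, against 15660.1 RPKM in water fruit.

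Members of 2 families of defence proteins were higher in NDGA fruit. Of 34 tested PR-10 proteins, the small major allergens known from fruit of the rose family, 13 were higher and 1 lower, with a median change of 1.49. The most abundant of the higher ones, major allergen Pru av 1 form comp101722_c0_seq4, had 6075 and 6232 RPKM in NDGA fruit, against 1292 and 1343 RPKM in water fruit. NDGA fruit were above water fruit, ABA fruit at day 5 had 435 and 438 RPKM and water fruit at day 0 had 2620.5 and 2668 RPKM (change 2.22 ± 0.04, adjusted p = 8.03e-12). A second component of the same description, comp95362_c0_seq1, went the other way, with 22.5 and 26.1 RPKM in NDGA fruit, against 93.3 and 107 RPKM in water fruit (adjusted p = 8.29e-06). The higher PR-10 transcripts numbered 4 with a pseudocount of 0.1, 6 to 9 without any 1 of the 4 libraries and 4 in the fit of the 6 day 5 libraries, and summed over forms 6 components were higher. Of 163 chitinases, beta-1,3-glucanases and thaumatin-like proteins, enzymes and proteins that act on fungal walls and membranes, 22 were higher and 0 lower, with a median change of 0.19. Without any 1 of the 4 libraries 9 or 10 of them were higher, and 4 in the fit of the 6 day 5 libraries. The basic isoform of glucan endo-1,3-beta-glucosidase (comp99479_c0_seq1) had 94.2 and 97 RPKM in NDGA fruit, against 3.67 and 3.77 RPKM in water fruit. Water fruit at day 5 were lower than NDGA fruit and lower than the 96.3 and 96.4 RPKM of day 0 (change 4.36 ± 0.18, adjusted p = 9.95e-09). In ABA fruit at day 5, set against the same water libraries, 0 PR-10 transcripts were higher and 7 lower, and 0 of the chitinase list were higher and 8 lower.

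Part of the photosynthetic genes were higher in NDGA fruit. Of 114 tested light-harvesting and photosystem transcripts 18 were higher (15.8%) and 0 lower, with a median change of 0.70. Of 72 Calvin cycle and chlorophyll genes 4 were higher (5.56%) and 0 lower. Of described transcripts 1.96% were higher and 1.39% lower. The fit of the 6 day 5 libraries called 6 of the photosystem list and 0 of the Calvin cycle list higher. Chlorophyll a-b binding protein 21 (comp96419_c0_seq1), an antenna protein, had 494 and 486 RPKM in NDGA fruit, against 128 and 136 RPKM in water fruit. Water fruit at day 0 had 73.8 and 84.1 RPKM, and ABA fruit at day 5 had 45 and 54.3 RPKM (change 1.88 ± 0.10, adjusted p = 1.53e-07). The small subunit of Rubisco (comp100300_c0_seq4), the enzyme that fixes carbon dioxide, had 121 and 113 RPKM in NDGA fruit, against 44.7 and 53.4 RPKM in water fruit (change 1.24 ± 0.16, adjusted p = 7.69e-04). On leaving out 1 of the 4 libraries 8 to 12 of the photosystem transcripts were called higher. Of 63 starch genes 4 were higher (6.35%) and 0 lower, and 1 was higher in the fit of the 6 day 5 libraries. Granule-bound starch synthase 1 (comp107842_c1_seq2), which makes amylose, had 283 and 272 RPKM in NDGA fruit, against 132 and 125 RPKM in water fruit (change 1.10 ± 0.09, adjusted p = 7.66e-06).

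Histones, the proteins that package DNA, were higher in 17 and lower in 0 of 165 tested transcripts, and in 14 of 162 without the 198 forms. Leaving out 1 of the 4 libraries gave 7 to 14 higher, the fit of the 6 day 5 libraries 4, and 9 components were higher as sums. The form of histone H4 with the smallest p (comp103902_c1_seq15) is 1 of those forms, with 17.2 and 23.6 RPKM in NDGA fruit, against 0.184 and 0 RPKM in water fruit. Of 289 cyclins, cyclin-dependent kinases and replication proteins 3 were higher and 0 lower. The higher share lay below the 1.23% of all tested and the 1.96% of described transcripts. Among the 3, cyclin-D3-1 (comp110005_c0_seq1), which drives entry into the cell cycle, had 69.8 and 60.2 RPKM in NDGA fruit, against 29.8 and 26.7 RPKM in water fruit (change 1.17 ± 0.17, adjusted p = 0.0015). Of 113 tubulins and actins 6 were higher and 2 lower, with 2 or 3 higher without any 1 library. Tubulin beta-6 chain (comp94311_c0_seq1) had 1933 and 1746 RPKM in NDGA fruit, against 1366 and 1374 RPKM in water fruit (change 0.42 ± 0.06, adjusted p = 0.00173), while tubulin alpha-5 chain (comp103254_c1_seq2) had 333 and 360.0 RPKM in NDGA fruit, against 473 and 460.5 RPKM in water fruit (change -0.43 ± 0.07, adjusted p = 0.00629). Of 707 cytosolic ribosomal proteins 7 were higher and 1 lower, and 4 of 704 were higher without the 198 forms, to which 60S ribosomal protein L8-3 (comp106479_c0_seq4) belongs. The higher and lower shares of the ribosomal proteins lay below the 1.23% and 0.802% of all tested transcripts. The lower one, 40S ribosomal protein S8 (comp106053_c0_seq1), had 287 and 302 RPKM in NDGA fruit, against 367 and 380.3 RPKM in water fruit (change -0.34 ± 0.07, adjusted p = 0.0213). Of 99 proteasome subunits 3 were higher and 2 lower, and beta type-3-A (comp102464_c1_seq10) had 29.8 and 34.2 RPKM in NDGA fruit, against 56 and 46.5 RPKM in water fruit (change -0.66 ± 0.14, adjusted p = 0.0303); sem1-2 (comp96407_c0_seq3) rose and is 1 of the 198 forms, without which 2 of 98 were higher.

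The largest falls were in seed storage proteins, which belong to the embryos inside the achenes and not to the receptacle of the label. Of 63 tested storage transcripts 0 were higher and 42 lower, with a median change of -2.53. Their summed level was 232 and 212 RPKM in NDGA fruit, against 5326 and 5428 RPKM in water fruit. The water libraries at day 5 lay between the 20006 RPKM of water fruit at day 0 and the 349 RPKM of water fruit at day 8, while NDGA fruit at day 8 averaged 221 RPKM, ABA fruit at day 5 264 RPKM and ABA fruit at day 8 221 RPKM. Legumin B (comp115929_c3_seq2) had 3.63 and 3.74 RPKM in NDGA fruit, against 476 and 511 RPKM in water fruit (change -6.72 ± 0.18, adjusted p = 2.16e-10). The 11S globulin G3 (comp115929_c3_seq1), in the same component, had 0.506 and 0.507 RPKM in NDGA fruit, against 412 and 379 RPKM in water fruit, the largest fall of any tested transcript (change -8.04 ± 0.46, adjusted p = 2.86e-07). Vicilin (comp99556_c1_seq5), another storage globulin, had 2.34 and 3.29 RPKM in NDGA fruit, against 377 and 394 RPKM in water fruit (change -6.67 ± 0.23, adjusted p = 1.77e-09). All 8 other storage proteins among the 10 largest named falls, legumins, 11S and 13S globulins, vicilins and a cruciferin, had changes of -7.75 to -6.54. Of 67 oil-body, late embryogenesis and dehydrin transcripts, which protect and stock the drying seed, 20 were lower and 1 higher, and 10 to 15 were lower without any 1 of the 4 libraries. Oleosin 1 (comp100785_c0_seq2), the coat protein of oil bodies, had 0 and 0 RPKM in NDGA fruit, against 25.1 and 28.3 RPKM in water fruit (change -4.79 ± 0.29, adjusted p = 5.40e-07). In bulk tissue, fewer cells of a type and less RNA per cell cannot be told apart, and the part of achene tissue in the other changes was not tested. In a fit of the 4 libraries alone 9 storage transcripts were lower, and 0 of the oil-body, late embryogenesis and dehydrin transcripts. The fit of the 6 day 5 libraries gave 27 and 6.

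**Figure D4:**
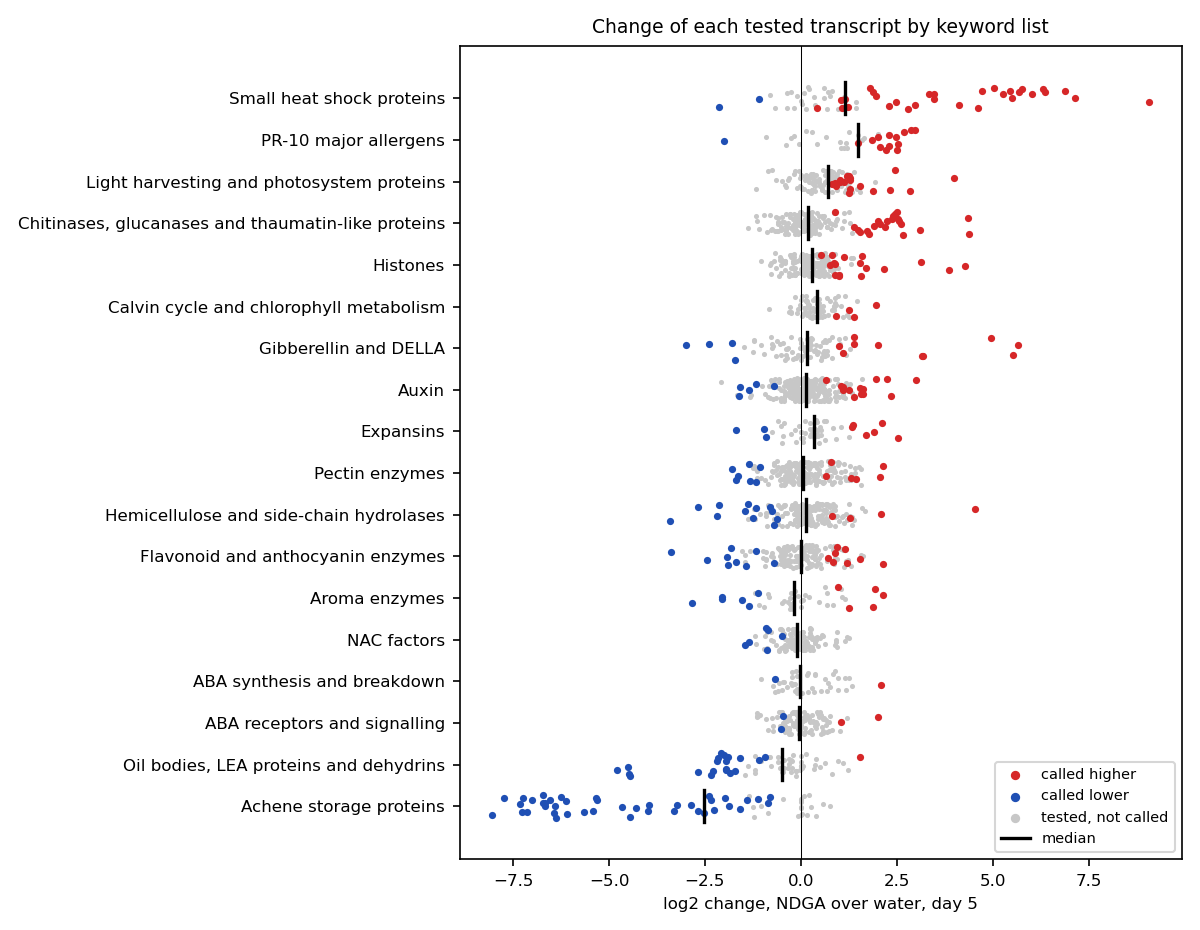
Change at day 5 (x axis, NDGA over water, log2) of the tested members of a selection of the keyword lists (y axis); each point is 1 transcript, with called members coloured. Small heat shock proteins have a median of 1.16 and achene storage proteins of -2.53, while the median of all tested transcripts is 0.01.

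Markers of vascular tissue and of the surface had few called members in number. As shares, 5.97% of the vascular list were higher and 0% lower, and 2.53% and 1.01% of the surface list. Of described transcripts 1.96% were higher and 1.39% lower. Of 67 xylem and vascular transcripts 4 were higher and 0 lower, and 3 of 66 were higher without the 198 forms; xylem serine proteinase 1 (comp111480_c0_seq9) had 129 and 134 RPKM in NDGA fruit, against 57.4 and 48.5 RPKM in water fruit (change 1.30 ± 0.11, adjusted p = 2.03e-05). Of 198 transcripts of wax, cutin and lipid-transfer proteins 5 were higher and 2 lower. The lipid-transfer protein AKCS9 (comp102703_c0_seq2) had 29.6 and 31.8 RPKM in NDGA fruit, against 2.78 and 1.52 RPKM in water fruit (change 3.36 ± 0.32, adjusted p = 4.30e-05), and the lipid-transfer protein-like transcript comp101554_c1_seq3 had 12.6 and 10.1 RPKM in NDGA fruit, against 25.7 and 23.3 RPKM in water fruit (change -1.05 ± 0.21, adjusted p = 0.0201). Of 133 lignin enzymes 3 were higher and 1 lower. Cinnamoyl-CoA reductase 1 (comp96349_c2_seq8), the entry to monolignols, had 13.1 and 10.4 RPKM in NDGA fruit, against 49.4 and 38.3 RPKM in water fruit (change -1.81 ± 0.26, adjusted p = 0.00161), and caffeoyl-CoA O-methyltransferase (comp101009_c0_seq1) had 69.9 and 60.5 RPKM in NDGA fruit, against 32.5 and 38.2 RPKM in water fruit (change 0.87 ± 0.13, adjusted p = 0.00263).

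Transcription factor families had few called members in number, and the NAC factors called were all lower. As shares, 5.17% of the NAC list were lower, 3.53% of the MADS-box list higher and 0.641% of the WRKY list higher. Of described transcripts 1.96% were higher and 1.39% lower. Of 116 NAC transcripts 0 were higher and 6 lower, 3 of them NAC transcription factor 29; without any 1 library 2 to 5 were lower. The form comp103951_c1_seq1 had 20.8 and 20.6 RPKM in NDGA fruit, against 55.2 and 53.4 RPKM in water fruit (change -1.35 ± 0.19, adjusted p = 0.00159). Of 143 AP2 and ERF factors 5 were higher and 1 lower. Ethylene-responsive transcription factor 1B (comp128233_c0_seq1) had 5.11 and 5.41 RPKM in NDGA fruit, against 0 and 0 RPKM in water fruit (change 2.65 ± 0.30, adjusted p = 2.55e-04). RAP2-12 (comp97789_c0_seq1), which in Arabidopsis responds to low oxygen, had 7.03 and 6.95 RPKM in NDGA fruit, against 23.1 and 20.3 RPKM in water fruit (change -1.50 ± 0.18, adjusted p = 4.49e-04). Of 100 MYB factors 1 was higher and 3 lower, 2 of these being MYB113, and MYB1R1 (comp107798_c0_seq1) was the higher one, by 0.78. The MADS-box protein JOINTLESS (comp96748_c0_seq2) had 63.1 and 67.4 RPKM in NDGA fruit, against 41.2 and 36.3 RPKM in water fruit (change 0.74 ± 0.13, adjusted p = 0.00761), among 3 higher and 0 lower of 85 MADS-box transcripts. Of 162 bHLH transcripts 2 were higher and 2 lower: bHLH96 (comp115633_c0_seq1) changed by 1.23 and bHLH104 (comp103998_c0_seq1) by -0.77. The homeobox factor HAT4 (comp107922_c1_seq1) changed by 1.33, in a list with 3 higher and 0 lower of 86, or 2 higher of 85 without the 198 forms. Of 156 WRKY transcripts 1 was higher, and 0 of 155 without the 198 forms; the most abundant, WRKY 3 (comp114571_c0_seq1), had 78.6 and 70.3 RPKM in NDGA fruit, against 90.4 and 88.2 RPKM in water fruit. Of 83 SBP, TCP and GRF transcripts 2 were higher (1 of 82 without the 198 forms), and TCP21 (comp106771_c0_seq1), the most abundant, had 122 and 142 RPKM in NDGA fruit, against 106 and 124 RPKM in water fruit. Of 93 photoreceptor and clock transcripts 0 were called; the clock factor LHY (comp120111_c1_seq1) had 174 and 179 RPKM in NDGA fruit, against 172 and 185 RPKM in water fruit.

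Ethylene and cytokinin genes had few called members in number, too few to read against the 1.96% higher and 1.39% lower of described transcripts. As shares, 1.85% of the ethylene list were higher and 1.85% lower. The cytokinin shares lay below those of described transcripts in both directions. Of 108 transcripts of ethylene synthesis and perception 2 were higher and 2 lower, all of them homologs of 1-aminocyclopropane-1-carboxylate oxidase. Homolog 1 (comp94479_c0_seq1) had 1.05 and 0.963 RPKM in NDGA fruit, against 8.88 and 7.82 RPKM in water fruit (change -2.22 ± 0.24, adjusted p = 1.59e-04). Of 83 cytokinin transcripts 1 was higher, and the receptor histidine kinase 2 (comp120250_c0_seq1), the most abundant, had 48.4 and 50.1 RPKM in NDGA fruit, against 49.3 and 50.3 RPKM in water fruit. The NDGA and water libraries overlapped for this receptor.

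Transport, sugar and redox genes had few called members in number, and mostly fewer without 1 of the 4 libraries. As shares, most of these lists lay above the 1.96% higher of described transcripts. The exceptions were the organic acid and small RNA lists, with 0 higher. The share of glycosyltransferases and cytochromes P450 was 2.04%, but the 6 of 437 without the 198 forms lay below 1.96%. The lower shares of aquaporins, sucrose genes and glutathione S-transferases also lay above the 1.39% of described transcripts. The lower shares of the ascorbate and glutathione list (1.44%) and the small RNA list (1.54%) lay just above it. Those of sugar transporters, organic acid genes, glycosyltransferases and cytochromes P450, and ABC and MATE transporters lay below it. In the fit of the 6 day 5 libraries 0 sugar transporters and 0 ABC and MATE transporters were higher, and 1 aquaporin was lower. Of 106 sugar transporters 5 were higher and 1 lower; SWEET10 (comp10412_c0_seq1), an exporter of sugars, had 1.57 and 0.449 RPKM in NDGA fruit, against 6.6 and 7.22 RPKM in water fruit (change -2.04 ± 0.38, adjusted p = 0.0126). Polyol transporter 5 (comp110090_c0_seq3) rose by 1.05, but the sum over the forms of its component changed by -0.12. Of 56 sucrose genes 2 were higher and 2 lower, and 2 forms of the cell wall invertase CWINV1 went opposite ways: comp104050_c2_seq1 had 103 and 115 RPKM in NDGA fruit, against 64.7 and 58.6 RPKM in water fruit, and comp104050_c2_seq2 had 6.37 and 9.06 RPKM in NDGA fruit, against 15.6 and 16.6 RPKM in water fruit. As a sum over forms this component changed by 0.58. Of 119 organic acid genes 0 were higher and 1 lower, NADP-dependent malic enzyme (comp99633_c0_seq2), which had 442 and 420.5 RPKM in NDGA fruit, against 573 and 569 RPKM in water fruit (change -0.40 ± 0.07, adjusted p = 0.0048). Of 61 aquaporins, the water channels, 4 were higher and 5 lower. PIP2-7 (comp119988_c1_seq2) had 1294 and 1323 RPKM in NDGA fruit, against 852 and 893 RPKM in water fruit (change 0.58 ± 0.06, adjusted p = 8.62e-05), while PIP2-1 (comp99920_c0_seq1) had 1354 and 1343 RPKM in NDGA fruit, against 1974 and 1967 RPKM in water fruit (change -0.55 ± 0.06, adjusted p = 8.62e-05). Of 68 glutathione S-transferases, which attach glutathione to reactive compounds, 3 were higher and 2 lower; comp93269_c0_seq1 had 104 and 110.4 RPKM in NDGA fruit, against 16.7 and 19.6 RPKM in water fruit (change 2.51 ± 0.14, adjusted p = 2.08e-07). Of 277 ascorbate and glutathione genes 8 were higher (7 of 275 without the 198 forms) and 4 lower, among them CXXS1 (comp91419_c0_seq1), with 79.9 and 88 RPKM in NDGA fruit, against 169 and 168 RPKM in water fruit, and monodehydroascorbate reductase (comp113818_c0_seq10), which regenerates ascorbate, higher by 1.47. Of 441 glycosyltransferases and cytochromes P450 9 were higher (6 of 437 without the 198 forms) and 4 lower, and limonoid UDP-glucosyltransferase (comp96378_c0_seq1) had 58.8 and 58.3 RPKM in NDGA fruit, against 184 and 182 RPKM in water fruit (change -1.63 ± 0.10, adjusted p = 7.11e-07). Of 370 ABC and MATE transporters 10 were higher and 2 lower. ABC transporter G family member 11 (comp52007_c0_seq1), which exports cuticle lipids in Arabidopsis, had 7.4 and 3.53 RPKM in NDGA fruit, against 0 and 0 RPKM in water fruit (change 2.63 ± 0.36, adjusted p = 0.00131). Of 130 transcripts of small RNA machinery and DNA methylation 0 were higher and 2 lower, both argonaute 2, and comp104246_c0_seq5 had 7.66 and 4.7 RPKM in NDGA fruit, against 23.3 and 33 RPKM in water fruit (change -2.03 ± 0.32, adjusted p = 0.00388). One of the largest rises outside the lists was the receptor-like kinase CCR1 (comp116037_c0_seq11), with 82.7 and 69.8 RPKM in NDGA fruit, against 0.495 and 0.208 RPKM in water fruit (change 5.84 ± 0.30, adjusted p = 9.24e-08).

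At day 8, in libraries other than the 4 of day 5 but within the same fit of 14, NDGA fruit differed from water fruit in 2164 transcripts (2.18%), 699 higher (0.705%) and 1465 lower (1.48%). Of the 1220 transcripts higher at day 5, 83 were higher at day 8, which is 6.80% of the day 5 list and 11.9% of the day 8 list, and 286 were lower, 23.4% and 19.5%. Of the 795 lower at day 5, 177 were lower at day 8, 22.3% and 12.1%, and 61 were higher, 7.67% and 8.73%. The effect of NDGA at day 8 minus that at day 5 was called for 2628 transcripts (2.65%), 850 of them above 0 (0.857%) and 1778 below 0 (1.79%). It was called for 777 of the 1220 and 351 of the 795, and ran against the day 5 direction in 773 and 335 of these; the difference contains the day 5 libraries that chose the lists. The median change at day 8 was -0.31 for the transcripts higher at day 5 and -0.09 for those lower at day 5. The values for the higher transcripts include members of the 198 forms. The summed level of those forms at day 8 was 522 and 557 RPKM in NDGA fruit, against 2227 and 2176 RPKM in water fruit.

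**Figure D5:**
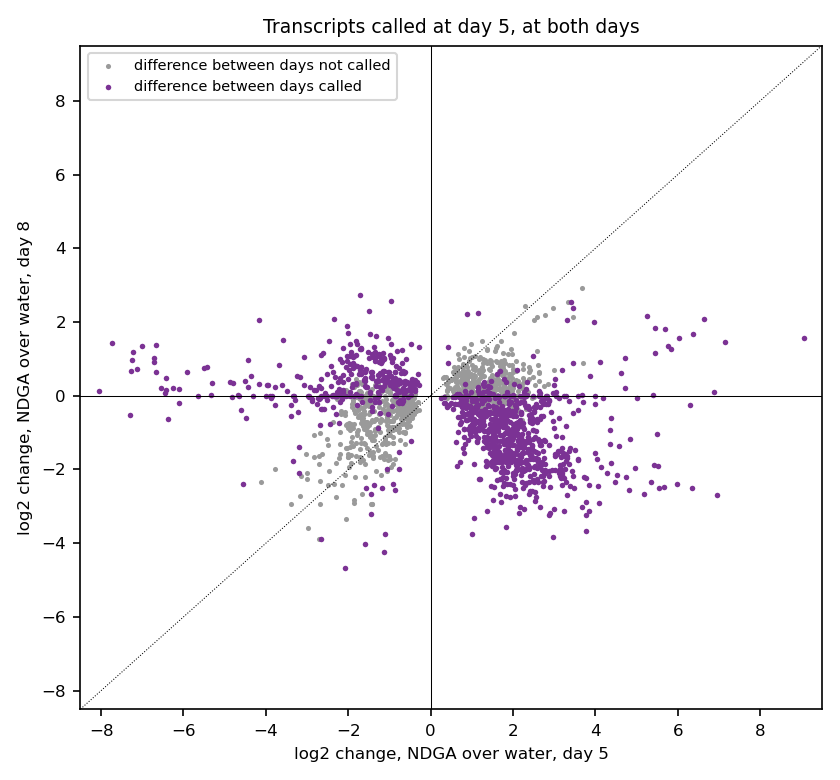
Change at day 8 (y axis, NDGA over water, log2) against the change at day 5 (x axis, NDGA over water, log2) for the transcripts called at day 5; each point is 1 transcript. Of the 1220 higher at day 5, 409 were above 0 at day 8, and of the 795 lower, 461 were below 0.

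The gene groups differed in what they did at day 8. Of the small heat shock proteins 16 were higher and 0 lower at day 8, and of the PR-10 proteins 1 was higher and 10 lower. Major allergen Pru av 1 (comp101722_c0_seq4) had 2243 and 2220.1 RPKM in NDGA fruit at day 8, against 4498 and 4585 RPKM in water fruit at day 8. The direction at day 8 was the opposite of that at day 5, and the difference between days was -3.25 (adjusted p = 7.09e-12). Of the photosystem transcripts 0 were higher and 11 lower; chlorophyll a-b binding protein 21 (comp96419_c0_seq1) had 488 and 484 RPKM in NDGA fruit at day 8, against 599 and 645 RPKM in water fruit at day 8, a difference between days of -2.24 (adjusted p = 1.32e-06). MYB113 (comp93382_c0_seq1) stayed lower, with 7.53 and 7.71 RPKM in NDGA fruit at day 8, against 135 and 119.7 RPKM in water fruit at day 8. Its change was -3.89 at day 8, and the difference between days was -1.22 (adjusted p = 0.0486). The quinone oxidoreductase form comp99435_c1_seq1 had 24.8 and 27.2 RPKM in NDGA fruit at day 8, against 373 and 351 RPKM in water fruit at day 8, a difference between days of -2.63 (adjusted p = 1.25e-06). Endoglucanase 8 (comp104453_c1_seq2) had 257 and 314 RPKM in NDGA fruit at day 8, against 349 and 326 RPKM in water fruit at day 8, a difference between days of 3.15.

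Set against contrasts that share none of the 4 libraries, the day 5 calls lay mostly opposite to those of ABA at day 8. In ABA fruit at day 8, 13.3% of all tested transcripts were called, 4.3% of all tested transcripts were higher and 8.98% lower than in water fruit at day 8. Of the transcripts higher with NDGA at day 5, 707 were lower with ABA at day 8, which is 7.94% of the ABA list and the larger part of the NDGA list, and 130 were higher, 10.7% and 3.05%. The 707 include members of the 198 forms, which were chosen to be low in ABA and high in water fruit at day 8. Their opposite direction was thus fixed by the bounds, and the number without them was not counted. Of those lower with NDGA at day 5, 325 were higher with ABA at day 8, 40.9% and 7.63%, and 67 were lower, 8.43% and 0.753%. In water fruit of day 8 against day 0, 10.6% were called: 4.87% of all tested transcripts rose and 5.68% fell. Of the transcripts lower with NDGA at day 5, 368 rose over that time, 46.3% of the NDGA list and 7.62% of the time list, and 166 fell, 20.9% and 2.95%. Of those higher with NDGA at day 5, 314 fell, 25.7% and 5.58%, and 157 rose, 12.9% and 3.25%.

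The deposited lists of regulated genes give names that the authors chose by fold change in ABA and NDGA fruit of these samples, so their direction here is not independent evidence. Of the 30 genes listed as up-regulated all 30 had a change below 0 with NDGA at day 5, and 5 were called lower. Of the 89 listed as down-regulated all 89 had a change above 0, and 22 were called higher. The 13 and 7 transcription factors listed as up- and down-regulated divided the same way, with 1 called lower and 2 called higher.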

How the data were processed

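The authors assembled reads de novo (Trinity, per the labels) and deposited an RPKM value per transcript for 14 mRNA libraries, with Swiss-Prot descriptions; aligner and counter: not given in the sources used here. In each library, RPKM times transcript length has the same sum. Clean read counts, deposited by the authors, were 52329532 to 61287376 per library. Whole reads were recovered from the RPKM steps: 100% of values came within 0.1 of a whole read, which gave 7356752 to 9035037 counted reads per library, 13.4 to 15.1% of clean reads. Replicates differed beyond sampling noise (median chi-square 1.22 and 1.30 for NDGA and water at day 5, against 0.455 from sampling alone).

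Transcripts with an RPKM of at least 1 in at least 2 of the 14 libraries were tested (99136 of 301219; 34209 described), leaving out 8 blank lines. log2(RPKM + 1) was fitted with limma 3.58.1 in R 4.3.3 (trended empirical Bayes, 7 groups, residual degrees of freedom 7, prior 6.05). The script was tested on simulated data. There 19 of 107 calls fell on unchanged transcripts, a larger part than the cutoff for a call implies. These false calls lay at low levels, with means up to 2.22 RPKM. Of 50 changes of each size, 1 was called at log2 1, 16 at log2 2, 36 at log2 3 and 35 at log2 4. Only these were changed, with rises and falls equal in number, so the Benjamini-Hochberg cutoff was stricter there than in the data. The counts by size therefore do not give the share of real changes that the comparison finds. Other tools were pandas 2.3.3, numpy 2.4.6 and the R package for data tables (version 1.17.8), and plots were drawn with matplotlib 3.10.9. Alternatives were pseudocounts of 0.1 and 5, no filter or one of RPKM 5, quantile and median-ratio scaling, voom on recovered reads, component sums, smaller fits, a replicate block and leaving out each library.

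The 52 lists are keywords on the descriptions, corrected where a description was mismatched. The members and lists were chosen with earlier results of these data known. From each list the text names the transcript with the smallest adjusted p in each direction with a mean of at least 5 RPKM in the higher group, or the most abundant where none was called; it also names the 10 largest described rises and falls with at least 10 RPKM, 1 form per component. Other list members named were chosen after their values were seen. No set test was run. Small RNA libraries were not analysed here.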

Additional observations from a re-analysis of the deposited data

Results flagged for a closer look

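The change of NDGA over water fruit differed between days for 2628 transcripts in limma's test of the difference itself, the effect at day 8 minus that at day 5, and every value below is such a difference on the log2 scale. Among the 98 transcripts chosen by the rule for named transcripts it was called for 66, which follow with no explanation; a value below 0 means a smaller or reversed rise, or a deeper fall, at day 8. Seed storage and oil-body transcripts, lower at day 5, had positive differences. The difference was 7.64 for Legumin B (comp115929_c3_seq2), 8.06 for Vicilin (comp99556_c1_seq5), 9.17 for 11S globulin seed storage protein G3 (comp94194_c0_seq2) and 8.43 for 13S globulin basic chain (comp113743_c1_seq1). It came to 6.80 for Legumin A (comp93081_c0_seq1), 7.84 for Cruciferin CRU1 (comp106816_c0_seq3), 7.31 for Legumin type B (comp113743_c2_seq1) and 8.15 for 11S globulin seed storage protein G3 (comp115929_c3_seq1). Further values were 5.14 for Oleosin 1 (comp100785_c0_seq2), 8.35 for 11S globulin seed storage protein G3 (comp96265_c0_seq2), 7.95 for Vicilin-like antimicrobial peptides 2-3 (comp99556_c0_seq5) and 6.76 for Vicilin (comp98932_c1_seq1).

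Heat shock proteins had differences of both signs. The difference was -6.78 for 17.4 kDa class III heat shock protein (comp104790_c0_seq4), -3.10 for 17.8 kDa class I heat shock protein (comp107291_c0_seq1), -7.50 for 17.6 kDa class I heat shock protein (comp99896_c0_seq2) and -4.67 for 26.5 kDa heat shock protein (comp104295_c1_seq1). It came to -6.54 for 17.6 kDa class I heat shock protein (comp99896_c1_seq1), -4.43 for 26.5 kDa heat shock protein (comp104684_c1_seq5), -4.46 for Small heat shock protein (comp101496_c0_seq2) and 0.61 for Heat shock cognate 70 kDa protein 2 (comp117136_c0_seq4). Further values were 3.42 for 23.6 kDa heat shock protein (comp102104_c2_seq15) and -3.90 for 17.5 kDa class I heat shock protein (comp107291_c2_seq1).

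The remaining differences below 0 belong to wall, defence, photosynthesis, transport and other transcripts, and Snakin-1, the histone, lipoxygenase, cellulose synthase, ribosomal and sem1-2 forms are among the 198 forms described above. The difference was -3.25 for Major allergen Pru av 1 (comp101722_c0_seq4), -8.05 for Gibberellin-regulated protein 1 (comp102519_c2_seq5), -8.13 for Snakin-1 (comp116484_c0_seq14) and -5.28 for Glucan endo-1,3-beta-glucosidase, basic isoform (comp99479_c0_seq1). It came to -4.38 for Polyol transporter 5 (comp110090_c0_seq3), -6.39 for Histone H4 (comp103902_c1_seq15), -6.67 for Endoglucanase 6 (comp120169_c1_seq20) and -2.63 for Quinone oxidoreductase-like protein At1g23740 (comp99435_c1_seq1). Further values were -2.24 for Chlorophyll a-b binding protein 21 (comp96419_c0_seq1), -5.92 for Linoleate 13S-lipoxygenase 2-1 (comp112755_c3_seq12), -5.29 for cellulose synthase A catalytic subunit 1 (comp105077_c0_seq2) and -4.64 for 60S ribosomal protein L8-3 (comp106479_c0_seq4). It also reached -4.58 for Serine/threonine-protein kinase-like protein CCR1 (comp116037_c0_seq11), -4.85 for non-specific lipid-transfer protein AKCS9 (comp102703_c0_seq2), -1.71 for Xylem serine proteinase 1 (comp111480_c0_seq9) and -1.28 for Granule-bound starch synthase 1 (comp107842_c1_seq2). The test gave -3.91 for Monodehydroascorbate reductase, seedling isozyme (comp113818_c0_seq10), -4.75 for 26S proteasome complex subunit sem1-2 (comp96407_c0_seq3), -3.28 for Ethylene-responsive transcription factor 1B (comp128233_c0_seq1) and -1.20 for Chalcone--flavonone isomerase 1 (comp105294_c0_seq1). The difference was -1.83 for Trans-cinnamate 4-monooxygenase (comp106234_c0_seq2), -0.60 for Aquaporin PIP2-7 (comp119988_c1_seq2), -1.37 for pectate lyase 5 (comp100002_c0_seq1) and -2.66 for Cytochrome P450 704C1 (comp99786_c0_seq4). It came to -1.19 for Caffeoyl-CoA O-methyltransferase (comp101009_c0_seq1), -1.37 for Ribulose bisphosphate carboxylase small chain (comp100300_c0_seq4), -0.88 for MADS-box protein JOINTLESS (comp96748_c0_seq2) and -1.64 for Transcription factor bHLH96 (comp115633_c0_seq1). The difference was -1.22 for Transcription factor MYB113 (comp93382_c0_seq1).

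The remaining differences above 0 follow. The effect differed by 3.15 for Endoglucanase 8 (comp104453_c1_seq2), 3.71 for Major allergen Pru av 1 (comp95362_c0_seq1), 2.04 for Limonoid UDP-glucosyltransferase (comp96378_c0_seq1) and 2.47 for Pectinesterase/pectinesterase inhibitor PPE8B (comp99587_c0_seq2). The gap between days was 0.88 for Aquaporin PIP2-1 (comp99920_c0_seq1), 2.53 for Ethylene-responsive transcription factor RAP2-12 (comp97789_c0_seq1), 1.55 for glutathione S-transferase (comp100295_c0_seq1) and 3.29 for Cinnamoyl-CoA reductase 1 (comp96349_c2_seq8). Other values above 0 were 2.08 for Beta-fructofuranosidase, insoluble isoenzyme CWINV1 (comp104050_c2_seq2), 0.73 for 40S ribosomal protein S8 (comp106053_c0_seq1), 3.23 for MATE efflux family protein 9 (comp112479_c0_seq18) and 1.67 for UDP-glucose flavonoid 3-O-glucosyltransferase 6 (comp111895_c0_seq3). The effect differed by 1.34 for Abscisate beta-glucosyltransferase (comp105597_c0_seq2), 2.98 for Protein argonaute 2 (comp104246_c0_seq5) and 1.49 for 1-aminocyclopropane-1-carboxylate oxidase homolog 1 (comp94479_c0_seq1).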

How the results depend on the processing

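The day 5 counts kept within 1.5 times of 1220 higher and 795 lower under the other pseudocounts, filters and scalings, component sums and recovered reads, except that voom on recovered reads called 1243 lower. The weights of voom were capped at the 99th percentile, chosen after seeing the data. A fit of the 4 compared libraries alone, with 2 residual degrees of freedom, called 22 (10 higher, 12 lower), all among the 2015, although 13169 had an unadjusted p below 0.05, against 12494 in the fit of 14 libraries. A fit of the 6 day 5 libraries called 400 (206 higher, 194 lower), 396 of them among the 2015. Leaving out 1 library gave 933 to 992 calls at day 5 (530 to 578 higher, 403 to 418 lower). It gave 838 to 945 at day 8 (219 to 285 higher, 619 to 674 lower), and 1595 to 1833 for the difference between days (476 to 590 above 0, 1096 to 1243 below 0). Without the 198 forms, an alternative chosen after seeing the data, 1897 were called at day 5, 1102 of them higher. At day 8 a pseudocount of 0.1 gave 1358 calls, 813 of them lower, and a fit of the compared groups alone gave 0, 0 of them higher and 0 lower, by limma, with 12583 at an unadjusted p below 0.05. The difference between days gave 1667 calls with component sums (539 above 0, 1128 below 0) and 1440 with the compared groups alone (466 and 974).

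Shared calls also moved. With a filter of RPKM 5, 391 transcripts were called in the same direction at day 5 and day 8 and 528 in opposite directions; 303 had the direction of ABA at day 8; 502 had that of water day 8 against day 0, and 1063 the opposite. With a pseudocount of 0.1, 165 were opposite at day 8. With the compared groups alone, 0 were shared in the same and 0 in the opposite direction with NDGA at day 8, 6 and 4 with ABA at day 8, and 9 and 3 with water day 8 against day 0. As sums over forms, CWINV1 comp104050_c2_seq2 turned to 0.58 at day 5 and -0.30 for the difference between days. Polyol transporter 5 comp110090_c0_seq3 turned to -0.12 at day 5, and endoglucanase 6 comp120169_c1_seq20 to -0.75 at day 5 and 0.35 for the difference. The cause of the other moves was not tested beyond the fewer libraries or transcripts each setting uses.

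Of the 98 named transcripts 94 were called, and 24 lost the call without at least 1 of the 4 libraries. Same-numbered libraries were alike only weakly (correlations of their deviations 0.050 to 0.101, all above 0). A replicate block gave 2453 calls at day 5, 1427 higher and 1026 lower. Depth limits low transcripts: 1 read on 1 kb was worth 0.111 to 0.136 RPKM, and 814 of the higher and 636 of the lower calls had at least 5 RPKM in the higher group.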
